A study of Caenorhabditis elegans with 51 samples.

Results

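The genes of the mitochondrial genome of *Caenorhabditis elegans* were described in RNA-seq libraries made from dissected pieces of single embryos at about the 100 cell stage. Their names were taken from the deposited gene tables as every name starting with MTCE or nduo-, together with ctb-1, ctc-1, ctc-2, ctc-3, atp-6 and ndfl-4 where present. This gave 36 genes of the 31383 genes listed: 12 protein-coding genes, 2 rRNA genes and 22 tRNA genes. Only ctb-1 carried a gene-style name, and the other 35 were listed as MTCE followed by a number. The Ensembl annotation (WBcel235) placed all 36 on the mitochondrial chromosome and on 1 strand, and RefSeq (the same assembly) gave the names of the proteins (COX1, ND4 and so on) used below. Positions are given only as order and distance, since the files use the ce10 build.

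Embryos of 3 genotypes were grown at 20°C, and fluorescent cells were drawn off by hand. Embryos carrying pCEH-51::mNG gave MS+ (descendants of the MS blastomere, 7 libraries) and MS- (the remaining cells of the same embryos, 7 libraries), and embryos carrying pFKH-2::mNG gave D+ (descendants of D, 7 libraries) and D- (7 libraries). Embryos carrying pR02D3.1::mKate2 and pHLH-1::mNG gave C-in (Cxp cells), C-out (Cxa cells) and C- (all other cells), with 5 libraries each. Every control library thus came from a transgenic embryo that had been dissected, and no intact embryo was included. The 43 libraries came from 19 embryos, and within a series the replicate number names the embryo.

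Total counts on genes ranged from 416394 to 3054633 per library. The libraries of dissected cells held fewer detected genes: the median number of genes above 25 RPKM (reads per kilobase of gene, scaled to a common library size) was 2811 in MS+ and 5116 in MS-, 2054 in D+ and 4280 in D-, and 2316 in C-in, against 2672 in C-out and 4969 in C-. The marker used for each dissection was high in most libraries of dissected cells, with medians of 444 RPKM for ceh-51 in MS+ and 67.9 in MS-, and of 619 RPKM for fkh-2 in D+ and 38.3 in D-. In the C series, hlh-1 had a median of 691 RPKM in C-in, against 9.71 in C-out and 82.8 in C-, and R02D3.1 had a median of 243 RPKM in C-in, against 1515 in C-out and 17.1 in C-. Other Cxa markers did not all follow. In C-out, lin-26 had a median of 605 RPKM, against 183 in C-. The median of elt-1 was 24.9 RPKM in C-out and 95.3 in C-. That of nhr-171 was 0 in C-out, with 2 of 5 libraries above 25 RPKM. Several libraries stood apart, and the comparisons are given without each of their embryos below. The library labelled MS+ replicate 2 had 8.44 RPKM of ceh-51, although pha-4, another MS marker, stood at 468 RPKM. pha-4 was not particular to MS+: its median was 141.5 RPKM there, against 74.8 in MS-, 89.1 in D- and 100.7 in C-. In MS+ of embryos 4 and 6 it stood at 4.99 and 2.29 RPKM. The MS marker tbx-35 had a median of 0 in MS+, with 0 of 7 libraries above 25 RPKM. The library labelled D+ replicate 8 had 2.35 RPKM of fkh-2, 7.11 of hlh-1 and 2.42 of unc-120, 2 muscle regulators, but 2061 RPKM of the C marker R02D3.1. R02D3.1 was not particular to the C series, since its median in D+ was 290 RPKM, with 5 of 7 libraries above 25 RPKM. Replicate 8 had the highest value of D+. The library labelled C-out replicate 1 held 5330 genes above 25 RPKM 73.9 RPKM of R02D3.1 and 92.3 RPKM of pha-4, against at most 2.95 RPKM of pha-4 in the other C-out libraries. Markers of further cell types were high in single libraries: elt-7 and end-1, endoderm regulators, reached 1761 and 869 RPKM in MS+ of embryo 3, elt-7 reached 2950.0 RPKM in MS+ of embryo 4, the germ line gene nos-2 reached 958 RPKM in D+ of embryo 4, and the neural gene hlh-14 reached 3021 and 1114 RPKM in C-out of embryos 2 and 6. D- of embryo 8 had 0.660 RPKM of pha-4, against a D- median of 89.1 RPKM. Their part in the results was not tested.

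Mitochondria carry a small circular genome of their own, which cells inherit from the egg. Its protein-coding genes specify core membrane subunits of the respiratory chain and of the ATP synthase, its rRNAs form the mitochondrial ribosome, and its tRNAs serve translation inside the organelle. All remaining subunits, the polymerases and the ribosomal proteins are encoded in the nucleus, imported, and assembled with the mitochondrial products.

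The 36 genes together received 1078970 counts in the 43 libraries. Protein-coding genes took 95.7% of these counts, the 2 rRNA genes took 4.27%, and the 22 tRNA genes took 0.0444%, or 479 counts. The libraries were made from polyadenylated RNA by the labels, so the small part of rRNA and tRNA counts describes the libraries and not the RNA content of the organelle. All 14 protein-coding and rRNA genes had counts in all 43 libraries.

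Cytochrome c oxidase, complex IV of the respiratory chain, dominated. Its 3 mitochondrial subunits took a median of 55.2% of the mitochondrial counts of a library, between 45% and 62.2%. COX1 (MTCE.26), the subunit that holds the site of oxygen reduction, received 28.6% of all mitochondrial counts, COX2 (MTCE.31), which accepts electrons from cytochrome c, 18.9%, and COX3 (MTCE.23) 7.94%. The 7 subunits of NADH dehydrogenase (complex I), the entry point of electrons from NADH, took a median of 24.5% of the counts of a library. Within it ND5 (MTCE.35), ND4 (MTCE.25), ND6 (MTCE.3) and ND1 (MTCE.11) received 5.72%, 5.65%, 4.5% and 4.44%, and ND2 (MTCE.16), ND3 (MTCE.34) and ND4L (MTCE.4) 2.3%, 1.15% and 0.590%. Cytochrome b (ctb-1), the catalytic membrane subunit of complex III, had a median of 9.68%, ATP6 (MTCE.12), the subunit of the ATP synthase that lines the proton path, 5.77%, and the 2 rRNAs 4.37% (the small subunit rRNA MTCE.7 and the large subunit rRNA MTCE.33 took 1.60% and 2.68% of all mitochondrial counts).

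Lengths had to be examined before levels per kilobase could be set side by side. The deposited length equalled the annotated length for 29 of the 36 genes and differed for 7. The largest difference was ND3, listed at 2855 bases and annotated at 336 bases, a factor of 8.5. ND4 was listed at 2921 bases against 1303, ND1 at 1541 against 873 and ND6 at 726 against 437, and ND4L, COX3 and COX1 differed by less than 10%. The deposited coverage showed which length fitted the counts. Coverage summed over the annotated interval amounted to between 50 and 51.9 covered bases per count for all 14 longer genes, ND3 with 51.1, ND4 with 50, ND1 with 50.5 and ND6 with 50.7 included. Shifting the intervals by 100 bases in either direction widened this range to 38.2 to 51.3 or 40.5 to 74.1 bases per count. Of the shifts tried, the range was narrowest at 30 bases toward the 3′ end, with 49.5 to 50.5 bases per count. The unshifted intervals were kept. The deposited RPKM of ND3 is therefore 8.5 times lower than its counts give over the annotated gene. Levels per kilobase of single mitochondrial genes below use the annotated lengths, except where deposited lengths are named.

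On that scale COX2 was the most abundant mitochondrial RNA, with a median of 3255 RPKM over the 43 libraries, followed by COX1 with 2072 RPKM. COX2 stood above COX1 in 38 of 43 libraries, and COX1 stood above ND6, the next gene, in 39 of 43. The genes that followed were ND6 with 1299.5 RPKM, COX3 with 1294, ATP6 with 1240.4 and ctb-1 with 967, and here the order was not stable: ND6 exceeded COX3 in 23 of 43 libraries and COX3 exceeded ATP6 in 23 of 43. ctb-1 exceeded ND1 in 40 of 43 libraries, which separated these 6 genes from the rest. ND1, ND4, ND5 and ND3 had medians of 558, 549, 437 and 409 RPKM. The large subunit rRNA (328 RPKM), ND2 (297), ND4L (277) and the small subunit rRNA (273) came last, and neighbours among these 4 exceeded each other in 22 to 24 of 43 libraries, so that they were not separated. With the deposited lengths ND3 fell to the 14th place, with a median of 48.1 RPKM, ND4 to the 13th, and ND6 to the 6th. The plot of levels by gene shows both medians.

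**Figure D1:**
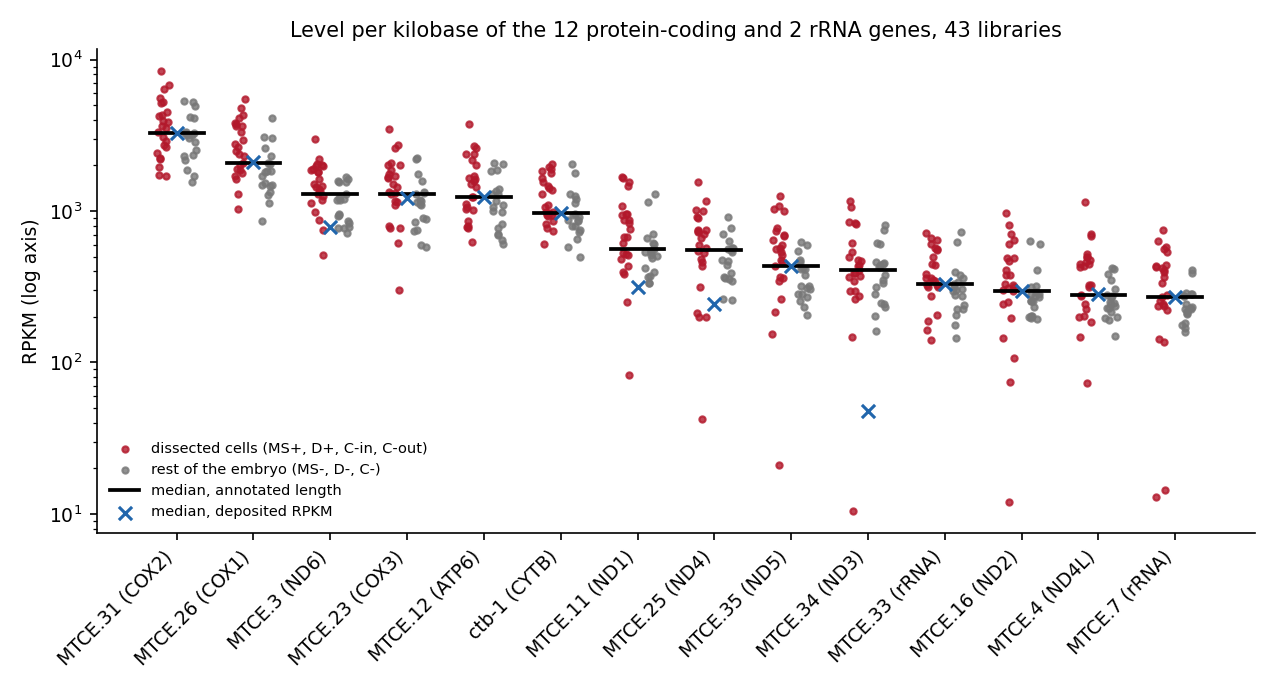
Level per kilobase (RPKM with annotated lengths, log axis) of the 14 longer mitochondrial genes in 43 libraries, ordered by median. Red points are the 24 libraries of dissected cells, grey points the 19 libraries of the remaining cells, black bars the medians, and blue crosses the medians of the deposited RPKM. The crosses of ND3, ND4, ND1 and ND6 lie below their bars, and isolated red points lie far below the others for ND3, ND2, ND4, ND5 and MTCE.7.

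The coverage along the mitochondrial genome followed the genes. Of the mitochondrial coverage, 0.171% lay on the 22 tRNA genes, 0.0215% on the 62 unannotated bases between genes, and 0.00633% on the 465 bases after the last gene up to the last covered base. Reads reached the stretch after the last gene in 22 of 43 libraries. Summed over the 14 longer genes, coverage was lowest toward the 5′ end, but not in each gene: the deepest base of the small subunit rRNA was base 154 of 696. Each gene was divided into 3 equal stretches from 5′ to 3′, and each stretch was summed over the 14 genes. The first held a median of 17.2% to 19.7% of the coverage in the 7 groups and the middle one, the highest, 41.5% to 43.7%. The last stretch held a median of 39.1% of the coverage in MS+ and 41.2% in MS-, 39.1% in D+ and 40.7% in D-, and 39.6% in C-in, against 34.9% in C-out and 37.4% in C-. The genes differed among themselves. COX2 and ND3 had 44.2% and 44.6% of their coverage in the last stretch, whereas ND6 had 25.9% and the small subunit rRNA 17.9% (medians over the 43 libraries). No base within the 14 genes was without coverage over the 43 libraries together.

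**Figure D2:**
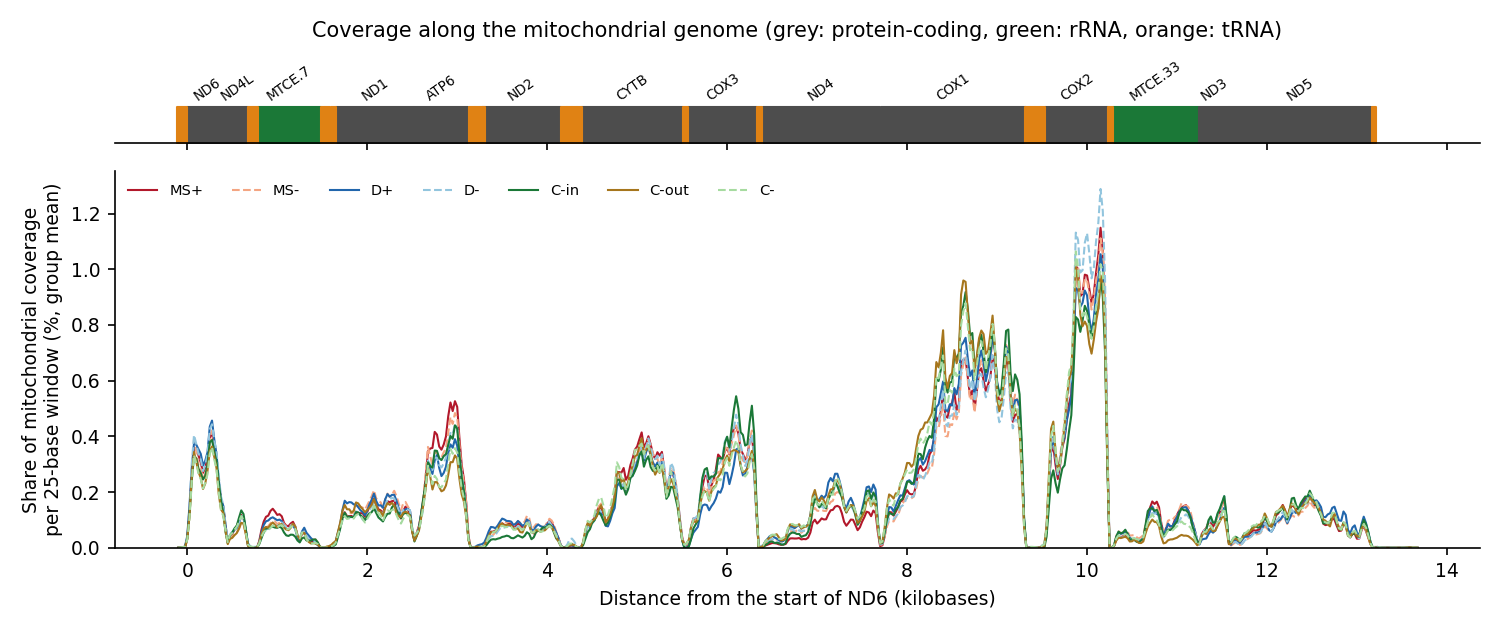
Share of the mitochondrial coverage in 25-base windows (y axis, percent, mean of each group) against the distance from the start of ND6 in kilobases (x axis), with the genes drawn to scale above. The 7 groups follow the same outline, with COX1 and COX2 highest and coverage near 0 over the tRNA genes.

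The tRNA genes were near the limit of detection. Of the 22, 19 had at least 1 count and MTCE.15, MTCE.27 and MTCE.29 had none in any library, where a count of 0 allows a level of up to 0.982 to 7.20 CPM (counts scaled to a common library size) depending on the depth of the library, counting error only. The coverage track did hold reads over these 3 genes (4877, 2541 and 396 covered bases), so a count of 0 does not mean that no read overlapped them. The tRNA genes together had a median of 9 counts per library and at most 33. The best covered were MTCE.19 with 118 counts and MTCE.18 with 69 counts in total, each seen in 24 of 43 libraries.

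The next question was whether the mitochondrial share differed between a group of cells and the remaining cells of the same embryos. The share of a library's counts on the 36 genes ranged from 0.633% to 3.01% over the 43 libraries, with a median of 1.24%. It ranged from 0.633% to 3.01% in MS+ (median 1.56%, mean 1.54% ± 0.773 SD, n = 7) and from 0.676% to 2.27% in MS- (median 1.11%, mean 1.30% ± 0.632 SD, n = 7). In 4 of 7 embryos the share of MS+ exceeded that of MS-, and the ratios ran from 0.755 to 1.76. D+ libraries had 1.07% to 2.1% (median 1.63%) and D- libraries 0.838% to 1.40% (median 1.21%), and D+ was higher in 6 of 7 embryos, with ratios from 0.765 to 1.73. The ranges overlapped in both series, and the embryo with the highest share in MS+ (replicate 2) also had the highest in MS-.

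In the C series the shares of embryos 1, 2, 4, 5 and 6 were 1.66%, 2.37%, 1.38%, 2.73% and 0.886% in C-in. The same embryos gave 1.07%, 2.08%, 1.16%, 2.16% and 2.21% in C-out, and 1.10%, 0.863%, 1.29%, 1.88% and 1.28% in C-. C-in was above C-out in 4 of 5 embryos, C-in above C- in 4 of 5, and C-out above C- in 3 of 5, and all ranges overlapped. The share is a sum over the genes and was given no test. A larger share can come from more mitochondrial RNA per cell or from less RNA of other kinds. A share of counts cannot tell these apart, nor fewer cells of a type from less RNA per cell. Spike-in RNA, by whose over-representation the paper rejected embryos, was not used here. Fewer genes were detected in the dissected cells, as given above, and the part of this in the shares was not tested. In 5 of 7 MS embryos and 5 of 7 D embryos both libraries lay on the same side of their group medians, and in 2 of 5 C embryos all 3 did. A library that was itself the group median counted for either side. These counts thus include MS embryo 5, the median of both groups, D embryo 3 (median of D+), D embryo 4 (median of D-) and C embryo 1 (median of C-in).

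**Figure D3:**
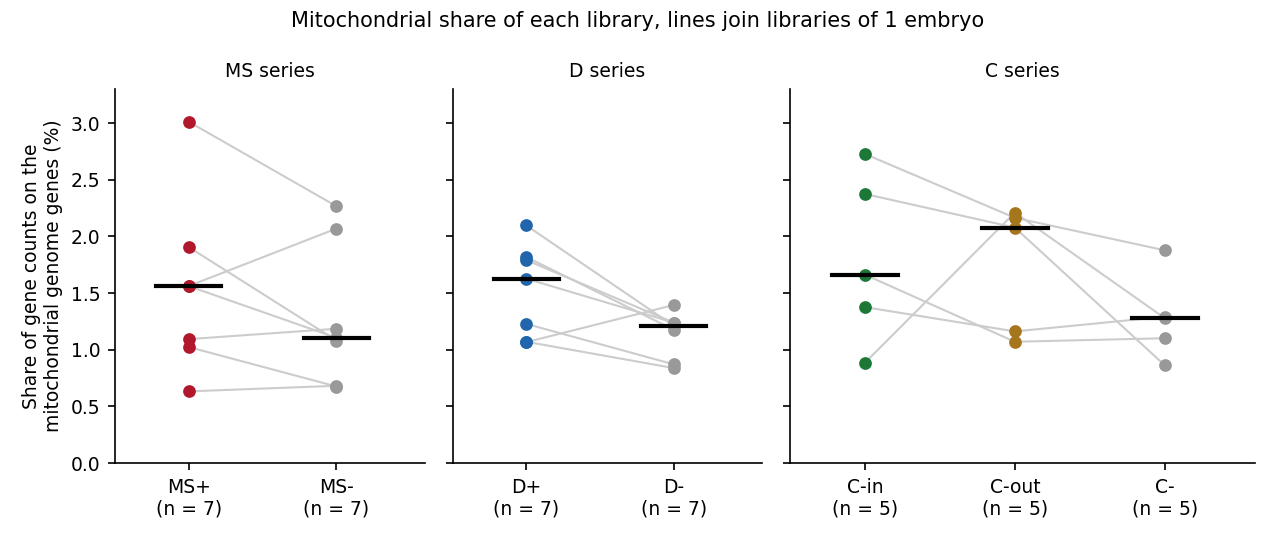
Share of gene counts on the 36 mitochondrial genes (y axis, percent) in each of the 43 libraries, by group, with grey lines joining libraries of the same embryo and black bars for the group medians. The medians of MS+ (1.56%), D+ (1.63%), C-in (1.66%) and C-out (2.08%) lie above those of MS- (1.11%), D- (1.21%) and C- (1.28%), with overlapping points.

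Single genes were then compared between groups with edgeR after TMM scaling, which removes a trimmed mean of the ratios between libraries, over the genes that exceeded 25 RPKM in as many libraries as the smaller group has. The 14 longer mitochondrial genes passed this filter in all 5 comparisons, and 1 tRNA gene (MTCE.19) passed it in 3 of them. The scaling moved all genes: over all tested genes the log2 fold change had a median of 0.57 in MS+ against MS-, 0.64 in D+ against D-, 0.25 in C-in against C-out, 0.65 in C-in against C- and 0.33 in C-out against C- with TMM, and -0.06, -0.01, 0.33, 0.02 and -0.37 with library totals alone. Log2 fold changes of the mitochondrial genes therefore have to be read against these medians. The tests answer for the spread between libraries of a group. Matched libraries of 1 embryo entered them as independent, and the embryo as a block was an alternative fit.

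In MS+ against MS-, 0 of 14 mitochondrial genes passed an adjusted p of 0.05 in edgeR (0.0804% of all genes tested were called higher). All 14 had a positive log2 fold change with TMM and 12 of 14 with library totals, and under TMM they ran from 0.21 to 1.54 with a median of 1.08, which is 0.50 above the median of all genes. At an unadjusted p of 0.05, 5 of 14 were higher in MS+ (ND5, ATP6, ctb-1, COX2 and ND6), as were 9.92% of all genes. DESeq2 called 6 of 14 higher, with 11.5% of all genes, and limma on log2(RPKM + 25) called 0, with 0.0536% of all genes. For ND4L DESeq2 gave no adjusted p, and it is counted as not called. Without embryo 2, whose MS+ library had little ceh-51, edgeR called 0 and the median log2 fold change was 0.63, beside 0.22 over all genes. It was 1.25 without embryo 3, beside 0.46 over all genes, and 0.47 without embryo 4, beside 0.35. With library totals and TMM computed without the mitochondrial genes it was 0.60, beside 0.23.

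COX1 had between 1778 and 9619.8 CPM in MS+ (median 3583) and between 1499 and 7374 CPM in MS- (median 2660.3). COX2 had 1299 to 6459 CPM in MS+ (median 2663) and 1163 to 4156 CPM in MS- (median 2316). The highest library of both genes was MS+ of embryo 2, and the groups overlapped almost entirely, with log2 fold changes of 0.97 (SE 0.470, adjusted p = 0.407) for COX1 and 0.93 (SE 0.445, adjusted p = 0.399) for COX2. ND5, a proton-pumping subunit of complex I, stood higher in MS+ for 6 of 7 embryos and had medians of 827 CPM in MS+ and 549 CPM in MS-. ND4, another pumping subunit of complex I, went least with the others, with a median of 296 CPM in MS+ and 654 CPM in MS- and a higher value in MS+ in 2 of 7 embryos. Its log2 fold change was 0.21 with TMM (SE 0.607, adjusted p = 0.915) against -0.27 with library totals and -0.05 with totals and TMM computed without the mitochondrial genes, and it did not pass in any of them.

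Cytochrome b ran from 725 to 2518 CPM in MS+ (median 1572) and from 593 to 2535 CPM in MS- (median 1112), and its log2 fold change was 1.10 (SE 0.485, adjusted p = 0.364). ATP6 ran from 509 to 2476 CPM in MS+ (median 1033) and from 410.5 to 1384 CPM in MS- (median 879), with 1.28 (SE 0.556, adjusted p = 0.350). ND4L, the shortest of the protein-coding genes, had the largest log2 fold change, 1.54 (SE 0.823, adjusted p = 0.459), and stood higher in MS+ for 6 of 7 embryos, at medians of 110.2 CPM in MS+ and 50.9 CPM in MS-. The small subunit rRNA had medians of 325 CPM in MS+ and 173 CPM in MS- and the large subunit rRNA 452 CPM in MS+ and 328 CPM in MS-. All of these groups overlapped.

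In D+ against D-, 0 of 15 mitochondrial genes passed in edgeR (0.0987% of all genes were called higher). The median log2 fold change of the 15 was 1.12, which is 0.48 above that of all genes, and 14 were positive (13 with library totals). At an unadjusted p of 0.05, 3 were higher in D+ (COX1, ND4 and ND1), with 5.56% of all genes. DESeq2 called 11 of 15 higher, with 13.6% of all genes, and limma called 0, with 0.0329% of all genes. COX1 was the gene nearest to the threshold: its CPM lay between 3228 and 6612 in D+ (median 3993) and between 2204 and 3570.4 in D- (median 2975), and D+ was above D- in 7 of 7 embryos. Its log2 fold change was 1.30 (SE 0.367, adjusted p = 0.246). Without embryo 8, whose D+ library was low in the D markers, COX1 was the 1 mitochondrial gene to pass, with a log2 fold change of 1.38 (SE 0.347, adjusted p = 0.0253). In that fit 0.874% of all genes were called higher, and 105 genes were called in either direction, against 9 with all embryos. Without embryo 4 edgeR called 0 and the median was 1.05, beside 0.60 over all genes.

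ND4 was the other gene higher in D+ in all 7 embryos, with 642 to 1648 CPM in D+ (median 1037) and 499 to 896 CPM in D- (median 623). Its log2 fold change of 1.32 (SE 0.564, adjusted p = 0.576) did not pass. COX2 and ctb-1 differed less, with log2 fold changes of 0.85 and 0.98. ND3, a small complex I subunit, and COX3 had the smallest values among the longer genes, 0.63 and 0.72, and with library totals their log2 fold changes were -0.06 and 0.00. The tRNA gene MTCE.19, with a median of 0 CPM in D+ and 2.40 CPM in D-, had the only negative value, -1.04 (SE 1.15, adjusted p = 0.766), which rests on a few counts.

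The other complex I genes differed in their spread. ND1 ran from 368 to 1584 CPM in D+ (median 493) and from 347 to 674 CPM in D- (median 502), so that its log2 fold change of 1.41 (SE 0.641, adjusted p = 0.591) went with nearly equal medians. ND2 ran from 11.7 to 907 CPM in D+ (median 305) and from 185 to 302 CPM in D- (median 265). ND6 and ND5 were higher in D+ in 6 and 5 of 7 embryos, with log2 fold changes of 1.12 (SE 0.602) and 1.21 (SE 0.594). The large subunit rRNA had medians of 389 CPM in D+ and 289 CPM in D-, and a log2 fold change of 1.36 (SE 0.717, adjusted p = 0.650).

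C-in and C-out were both drawn from the C lineage. Of 14 mitochondrial genes, 0 passed in edgeR (0.951% of all genes were called higher in C-in), 0 had an unadjusted p under 0.05 (6.39% of all genes were higher at that level), and DESeq2 and limma called 0 and 0 (6.07% and 2.36% of all genes). The median log2 fold change was 0.00, which is 0.25 below that of all genes tested, and 7 of 14 were positive, with TMM as with library totals. COX1 had 6208, 6305, 5134, 6666 and 3078 CPM in C-in and 2809, 7316, 4097, 7097 and 8199.9 CPM in C-out. The library highest in C-out (embryo 6) belonged to the embryo lowest in C-in. The 2 rRNAs lay furthest apart, at -0.51 (SE 1.09) for the small and 0.81 (SE 0.859) for the large subunit rRNA. The small subunit rRNA had 304, 107, 420.3, 213 and 10.8 CPM in C-in and 177, 557, 184, 189.7 and 177 CPM in C-out, so that its sign turned to 0.41 without embryo 2. Without embryo 1, whose C-out library held many genes, the median of the 14 genes was -0.12, without embryo 2 the median of the 15 tested was 0.01, and without embryo 6 it was 0.16. Over all genes the medians of these fits were 0.08, 0.31 and 0.25.

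C-in against C- gave the only mitochondrial gene past the threshold in edgeR. COX1 was called higher in C-in, which is 1 of 15 mitochondrial genes, with 1.34% of all genes called higher. Its levels were 6208, 6305, 5134, 6666 and 3078 CPM in C-in and 3634, 2550.2, 4548, 5432 and 3972 CPM in C-. C-in was above C- in 4 of 5 embryos and below it in embryo 6, and the groups overlapped. The log2 fold change was 1.12 (SE 0.316, adjusted p = 0.0475). The call was narrow: with the embryo as a block the log2 fold change was 1.07 and the adjusted p was 0.0841, with library totals alone 0.44 and 0.538, and leaving out embryo 1, 2, 4 or 5 raised the adjusted p to between 0.0728 and 0.134. Without embryo 6 it stayed past the threshold, with 1.07% of all genes called higher.

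All 15 mitochondrial genes tested had a positive log2 fold change in C-in against C-, also with library totals, with a median of 1.32, which is 0.68 above that of all genes. At an unadjusted p of 0.05, 6 of 15 were higher in C-in, as were 9.01% of all genes. DESeq2 called 10 of 15 higher, with 18.3% of all genes, and limma called 0, with 1.09% of all genes. COX3, a structural subunit of complex IV, came next to COX1 with 1356, 1711, 1432, 2932 and 966 CPM in C-in and 989, 499, 974, 1477 and 739 CPM in C-. It was higher in C-in in 5 of 5 embryos, with a log2 fold change of 1.49 (SE 0.447, adjusted p = 0.0634). ND3 was also higher in 5 of 5 embryos, at 133, 299, 225, 430.0 and 107 CPM in C-in and 115, 74.3, 166, 222 and 88.6 CPM in C-, with a log2 fold change of 1.52 (SE 0.820, adjusted p = 0.373). ND5 had the widest spread, with 1699, 1739.5, 594, 2178 and 35.7 CPM in C-in and 526, 553, 711, 1088 and 1017 CPM in C-.

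In C-out against C-, 0 of 15 mitochondrial genes passed in edgeR, which called 0% of all genes higher. All 15 were positive with TMM, and with library totals all but the large subunit rRNA (-0.18), and the TMM median was 1.7, which is 1.37 above that of all genes. At an unadjusted p of 0.05, 5 of 15 were higher in C-out, as were 13.5% of all genes. DESeq2 called 10 of 15 higher, with 11% of all genes, and limma called 0, with 0.368% of all genes. For the small subunit rRNA and MTCE.19 DESeq2 gave no adjusted p, and they are counted as not called. The TMM factor of the C-out library of embryo 2 was 0.220, the lowest of this comparison, and the median of the mitochondrial genes was 0.76 without embryo 2 and 0.77 without embryo 6, against 1.55 without embryo 1. Over all genes the medians of these fits were 0.13, -0.23 and 0.38. ctb-1 was the only gene of the 14 higher in C-out in 5 of 5 embryos, with 1043, 1743, 1284, 2339 and 1707 CPM in C-out and 909, 971, 1066, 2172 and 1366 CPM in C-. Its log2 fold change was 1.63 (SE 0.819, adjusted p = 0.338). The 3 comparisons of the C series share libraries, and their values are not independent.

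COX1 and COX2 were higher in C-out in 3 of 5 embryos each. COX2 had 2498, 3899, 1478, 3396 and 3891 CPM in C-out and 1744, 1794, 1928, 4032 and 2399 CPM in C-, and its log2 fold change was 1.75 (SE 0.838, adjusted p = 0.315). The small subunit rRNA had the largest value, 2.32 (SE 0.965, adjusted p = 0.275), with 177, 557, 184, 189.7 and 177 CPM in C-out and 159.7, 134, 209, 175 and 211 CPM in C-, and only the library of embryo 2 in C-out lay outside the range of C-. ND4L, with 46.5, 81.1, 82.0, 132 and 50.1 CPM in C-out and 58.3, 58.6, 107, 106 and 59.9 CPM in C-, was higher in C-out in 2 of 5 embryos.

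**Figure D4:**
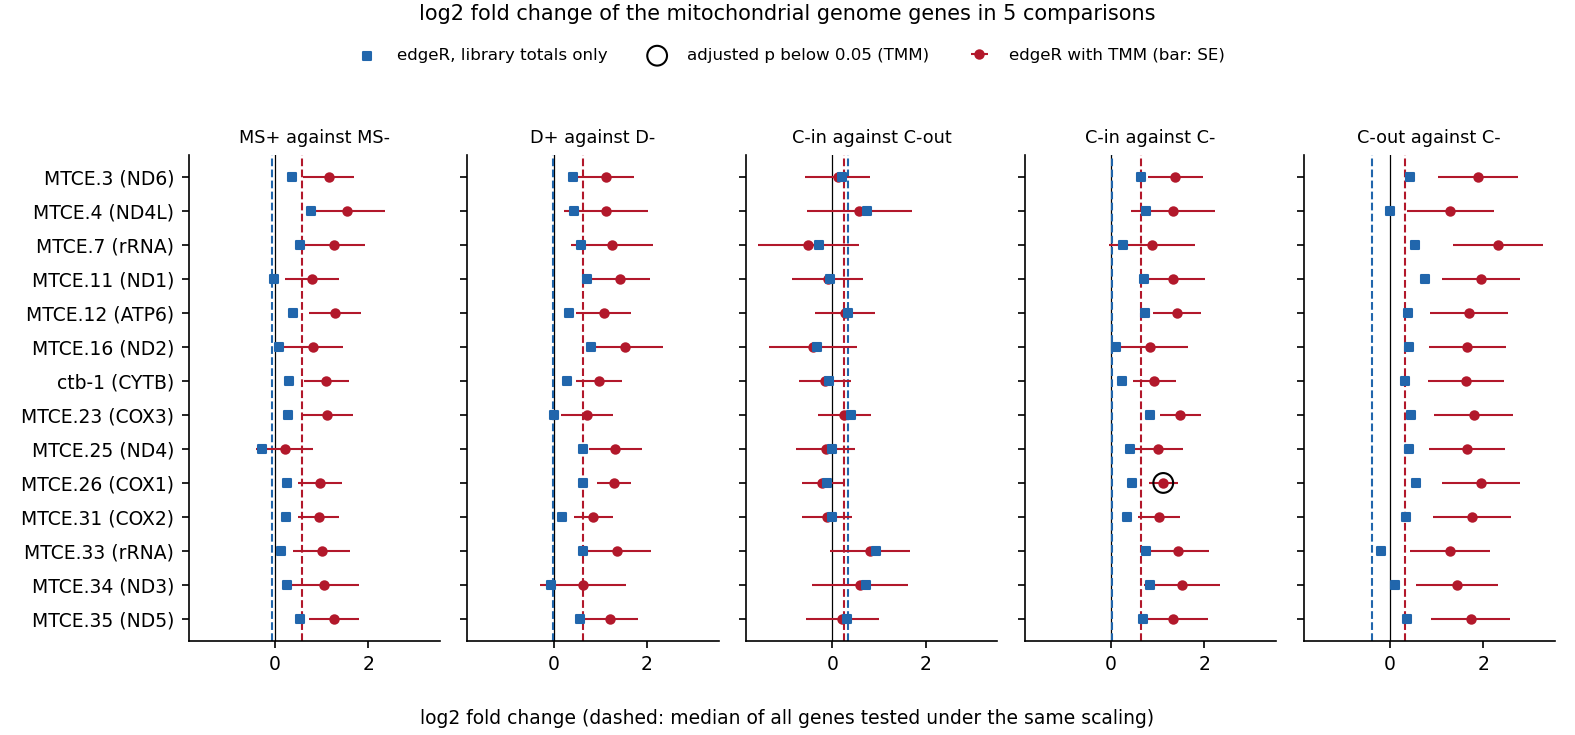
Log2 fold change (x axis) of the 14 longer mitochondrial genes in the 5 comparisons, from edgeR with TMM (red, bars are SE) and with library totals alone (blue), with dashed lines for the median of all genes tested under each scaling. The red points lie to the right of the blue ones in 4 comparisons, and the circle marks COX1 in C-in against C-, the only gene past the threshold.

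The spread of the composition over embryos was then described, with no test. The SD over libraries of the log2 share of a gene within the mitochondrial counts had a median over the 14 genes of 0.36 in MS+ and 0.24 in MS-, 0.42 in D+ and 0.24 in D-, and 0.49 in C-in, against 0.30 in C-out and 0.25 in C-. It was larger in MS+ than in MS- for 12 of 14 genes, larger in D+ than in D- for 9, and larger in C-in than in C- for 13, but larger in C-out than in C- for only 8. The SD of COX1 was 0.29 in C-in, the highest of the groups, and 0.12 in C-, the lowest, and that of ctb-1 lay between 0.23 and 0.36.

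Part of this spread came from single genes that were nearly missing from a library. Of the 336 values in the 24 libraries of dissected cells, 7 lay more than 5-fold under the gene's median share, and of the 266 values in the 19 libraries of remaining cells there were 0. Values of the same library are not independent. The 7 values fell in 5 libraries and on 5 genes, and 0 of the 602 values lay more than 5-fold above the median share. In D+ of embryo 6, ND3 had 5 counts and ND2 had 15 counts, 32.3-fold and 19.7-fold under their median shares. In D+ of embryo 3 the small subunit rRNA had 13 counts (26.8-fold under), and in MS+ of embryo 4 ND4 had 63 counts (18.1-fold under). C-in of embryo 6 had 43 counts of ND5 (14.3-fold under) and 13 counts of the small subunit rRNA (13.1-fold under), and C-in of embryo 1 had 100 counts of ND2 (5.15-fold under). In these libraries the other genes had a median of 0.825 to 1.06 times their median shares, although single ones were also far off. In C-in of embryo 6, ND1 stood at 0.881% of the mitochondrial counts and ATP6 at 10.53%, against medians over the 43 libraries of 4.22% and 5.77%, and in D+ of embryo 6 COX3 stood at 2.39% and ND4 at 10.0%, against 7.71% and 5.73%. ND1 in C-in of embryo 6 just missed the 5-fold threshold, and ND2 in C-in of embryo 1 just passed it. In the 5 libraries the mitochondrial share of the library was between 0.886% and 1.90%. The threshold of 5-fold was chosen after these values had been seen, the 5 libraries had 1047384 to 1430473 counts, and the part of depth in them was not tested.

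**Figure D5:**
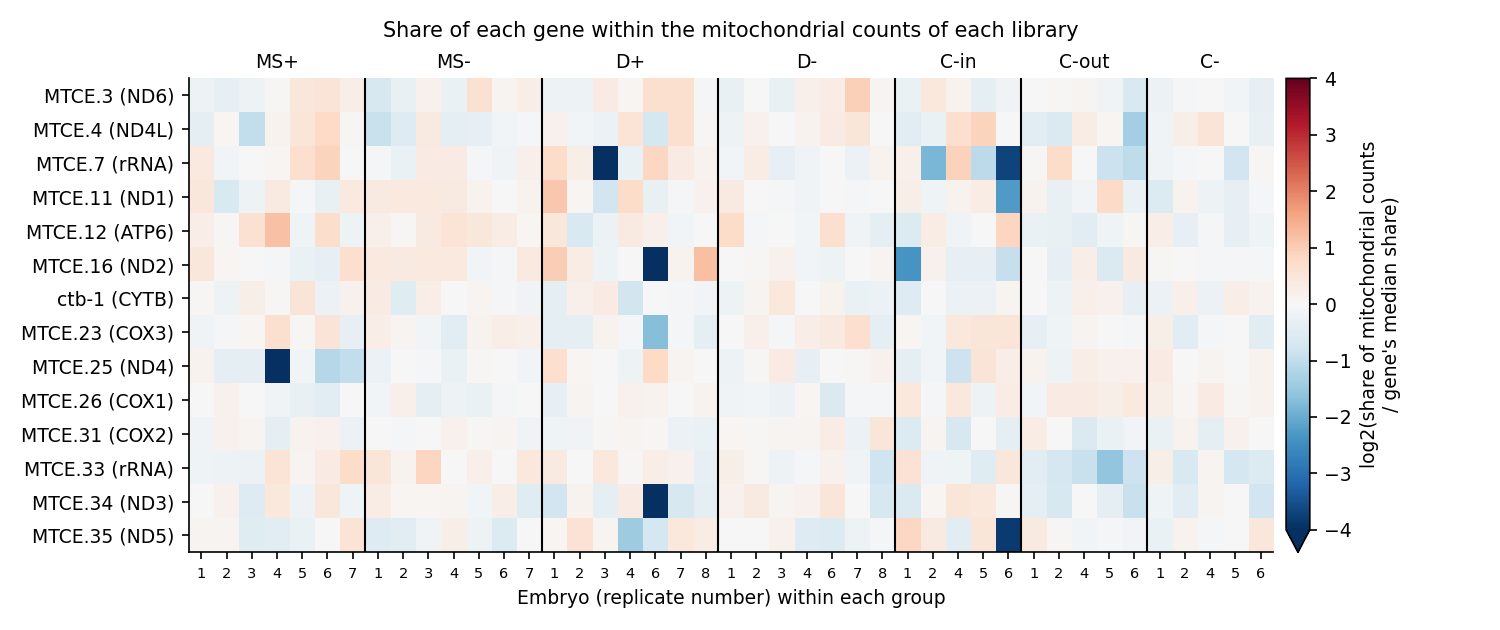
Share of each of the 14 genes within the mitochondrial counts of each library, relative to the gene's median share over 43 libraries (log2, colour scale, values under -4 drawn as -4), with columns as embryos within the 7 groups. Most cells are pale, and the dark blue cells, where a gene was nearly missing, lie in MS+, D+ and C-in columns.

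The genes varied together over the libraries. After group means were subtracted, Pearson's r between the log2(CPM + 1) values of 2 genes over the 43 libraries was positive for 91 of 91 pairs, with a median of 0.604 and a range from 0.172 to 0.867. COX3 and COX1 were the most typical, with a median r of 0.724 and 0.697 with the other 13 genes, and the small subunit rRNA and ND4 the least, with 0.274 and 0.375. The values share library and depth, so these are descriptions. Among 5302 other genes with a mean above 25 RPKM, those whose level (log2 of RPKM + 25, group means subtracted) followed the mitochondrial share most closely over the 43 libraries were F59F4.2 (r = 0.662), trap-2 (0.662), rps-29 (0.646), rps-7 (0.620) and rps-17 (0.616). Over all 5302 genes r had a median of -0.0610 and a lowest value of -0.652, so the negative end was about as far from 0 as the positive end. trap-2 encodes a subunit of the translocon-associated complex of the endoplasmic reticulum, and rps-29, rps-7 and rps-17 encode proteins of the small cytosolic ribosomal subunit. The 66 nuclear genes of mitochondrial function among them, described next, had a median r of 0.0558 and a highest r of 0.462.

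The nuclear partners of the mitochondrial genes were taken from lists of 76 genes, of which 75 were found: subunits of complexes I to IV and of the ATP synthase, cytochrome c, factors of mitochondrial DNA maintenance and expression, chaperones and proteases, and 2 proteins of the mitochondrial ribosome. In MS+ against MS-, D+ against D-, C-in against C-out, C-in against C- and C-out against C-, 65, 58, 52, 62 and 66 of them were tested, and 0 were called higher and 0 lower by edgeR in any of the 5. At an unadjusted p of 0.05, 7, 3, 2, 5 and 16 were higher, beside 9.92%, 5.56%, 6.39%, 9.01% and 13.5% of all genes, and 1, 0, 0, 0 and 0 were lower. DESeq2 called 6, 6, 2, 15 and 12 higher in that order, beside 11.5%, 13.6%, 6.07%, 18.3% and 11% of all genes, and 0, 2, 0, 0 and 0 lower. Limma called 1, 0, 0, 1 and 0 higher, beside 0.0536%, 0.0329%, 2.36%, 1.09% and 0.368% of all genes, and 1, 0, 0, 1 and 0 lower. In either direction DESeq2 called 11.7%, 16.75%, 12.9%, 25.1% and 11.2% of all genes. Limma called 3.03%, 0.724%, 7.61%, 12% and 0.686% in either direction. In edgeR the lowest adjusted p was 0.186 in MS+ against MS-, 0.368 in D+ against D-, 0.228 in C-in against C-out, 0.0632 in C-in against C- and 0.267 in C-out against C-. Their median log2 fold change was 0.62 in MS+ against MS-, 0.49 in D+ against D-, 0.56 in C-in against C-out, 1.05 in C-in against C- and 0.68 in C-out against C-, beside 1.08, 1.12, 0.00, 1.32 and 1.7 for the mitochondrial genes and the medians of all genes given above. The nuclear subunits of complex IV, the partners of COX1 to COX3, were all tested, and had medians of 0.75, 0.45, 0.79, 1.18 and 0.70 in the same order.

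Since none passed, the extremes of the nuclear genes are given as values only. In MS+ against MS-, nduf-6, a complex I subunit, had the smallest log2 fold change, -2.65 (SE 1.15, adjusted p = 0.352), with medians of 0.820 RPKM in MS+ and 53.3 RPKM in MS-, while ucr-2.2, a core protein of complex III, had 2.43 (SE 1.28) although its median was 12.8 RPKM in MS+ and 30.4 RPKM in MS-, ZC376.7 had 3.01 (SE 1.13) and C34B2.6 had -2.15 (SE 1.16). In D+ against D-, tsfm-1, a mitochondrial translation elongation factor, had the largest value, 2.84 (SE 1.51, adjusted p = 0.650), although its median was 6.41 RPKM in D+ and 34.4 RPKM in D-, and 1 D+ library reached 1160.0 RPKM. The next were Y51H1A.3 with 2.21 (SE 1.06) and, at the other end, Y54F10AM.5 with -2.26 (SE 1.19) and mrps-5 with -2.17 (SE 1.21). In C-in against C-out, hmg-5, a protein that binds mitochondrial DNA, had 3.32 (SE 1.37, adjusted p = 0.228), with medians of 534 RPKM in C-in and 21.4 RPKM in C-out, beside F45H10.2 with 2.88 (SE 1.31), hsp-6 with -1.88 (SE 1.5) and C18E9.4 with -1.52 (SE 1.71). In C-in against C-, sdhb-1, the iron-sulfur subunit of complex II, had -2.66 (SE 1.30, adjusted p = 0.319), with medians of 4.35 RPKM in C-in and 176 RPKM in C-, beside F45H10.2 with 2.38 (SE 1.05), nduf-7 with 2.28 (SE 1.26) although its median was 54.8 RPKM in C-in and 93.9 RPKM in C-, and mrpl-41 with -1.14 (SE 1.30). In C-out against C-, cyc-1, cytochrome c1 of complex III, had -1.58 (SE 1.01, adjusted p = 0.463), with medians of 11 RPKM in C-out and 209.8 RPKM in C-, beside nduf-6 with 4.46 (SE 1.47), C18E9.4 with 4.11 (SE 1.43) and hmg-5 with -1.58 (SE 1.07).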

How the data were processed

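Libraries were made from single-embryo dissections with the SMARTer Ultra Low and Nextera XT kits. The authors deposited, for each library, whole-number read counts per gene, a gene length and RPKM computed from both, and a coverage signal scaled to a constant per read. The labels name bedtools and the ce10 build, and no aligner or strand setting is named in the sources used here. RPKM equalled counts over the deposited length and a library total to within 0.00101. Groups, replicates and the rejected embryos (3 of 22) came from the labels.

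CPM was computed from the counts. Counts were compared with edgeR 4.0.16 (quasi-likelihood, TMM) in R 4.3.3 on the 2 groups of each comparison, for genes that exceeded 25 RPKM in a number of libraries equal to the smaller group. The p-values were adjusted by Benjamini-Hochberg across the genes of a fit, and 0.05 was the threshold. Alternatives were other scalings, no filter, DESeq2 1.42.0, limma 3.58.1 on log2(RPKM + 25) and log2(RPKM + 1), the embryo as a block, and leaving out each embryo. The 25 RPKM filter, the limma fits and the shares of summed RPKM used the deposited RPKM, and so the deposited lengths. Values were tabulated in Python 3.11.15 (pandas 2.3.3). On simulated counts with the spread of these libraries, edgeR missed most of the changed genes at this threshold, so a gene that did not pass is not shown to be unchanged.

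The pairing comes from the design text, which matches libraries by embryo. Over all genes with a mean above 25 RPKM, the mean correlation of deviations from group means for libraries of the same embryo was 0.0363 (MS), 0.0259 (D) and 0.0319 (C), and over the mitochondrial genes 0.184, 0.368 and 0.134. Replicates are separate embryos. The limits given for a count of 0 cover counting error only, whereas the SE of a log2 fold change comes from the edgeR fit and includes the spread between libraries.

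The 36 genes, the gene lists and the tests were chosen with earlier results of these data known. Named were the 14 longer genes, tRNA genes with a count in the median library (MTCE.18 and MTCE.19), nuclear genes from the lists at the extremes of each comparison, and the 5 genes that followed the mitochondrial share most closely. Coverage was compared with the annotation of another build only after its fit to the counts had been checked. Sequences are not printed, and libraries of rejected embryos entered no comparison.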

Additional observations from a re-analysis of the deposited data

Results flagged for a closer look

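Within 105 sets of values (14 genes and the mitochondrial share in each of 7 groups), 5 sets held a library far from the others of its group by Dixon's criterion, 4 libraries in all, where chance marks about 1 in 20 sets. MS+ of embryo 2 had 9620 CPM of COX1 (MTCE.26), against 1778 to 4899 CPM in the other 6 libraries, and 6459 CPM of COX2 (MTCE.31), against 1299 to 3242 CPM, and this is the MS+ library with little ceh-51. D+ of embryo 1 had 1648 CPM of ND4 (MTCE.25), against 642 to 1072 CPM. C-out of embryo 2 had 556.7 CPM of the small subunit rRNA (MTCE.7), against 176.6 to 189.7 CPM. C- of embryo 5 had 4032 CPM of COX2, against 1744 to 2399 CPM.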

How the results depend on the processing

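Counts of mitochondrial genes past the threshold were 0, 0, 0, 1 and 0 in MS+ against MS-, D+ against D-, C-in against C-out, C-in against C- and C-out against C-. DESeq2 gave 6, 11, 0, 10 and 10. In C-in against C-, RLE scaling gave 3, and library totals without TMM, no filter on low values, both limma fits and the replicate block gave 0. Leaving out each embryo gave 0 to 1 in D+ against D- and in C-in against C-, and 0 in the other 3 comparisons. The embryo as a block changed no other call, and gave median log2 fold changes of 0.93, 0.95, -0.17, 1.07 and 1.17.

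The median log2 fold change of the mitochondrial genes was 1.08 in MS+ against MS-, 1.12 in D+ against D-, 1.32 in C-in against C- and 1.7 in C-out against C-. In the same order it was 1.81, 1.95, 2.22 and 2.29 with RLE scaling, and 1.8, 1.95, 2.22 and 2.29 (2.285) with DESeq2. With totals and TMM computed without the mitochondrial genes it was 0.60, 1.13, 1.34 and 1.73. It was 0.27, 0.44, 0.63 and 0.38 with library totals, 0.27, 0.32, 0.33 and 0.36 with limma on log2(RPKM + 25), and 0.28, 0.33, 0.28 and 0.39 with limma on log2(RPKM + 1). With no filter it was 1.14 in C-out against C-. Leaving out each embryo gave 0.47 to 1.51 in MS+ against MS-, 1.03 to 1.27 in D+ against D-, -0.12 to 0.16 in C-in against C-out, 0.88 to 1.48 in C-in against C- and 0.76 to 1.95 in C-out against C-. Relative to the median of all genes it was above 0 under all 16 settings in MS+ against MS- and in D+ against D- and under all 14 in C-in against C- and C-out against C-, and under 1 of 14 in C-in against C-out. The size of this difference was not stable. It ran from 0.12 (without embryo 4) to 1.73 in MS+ against MS- and from 0.43 to 1.73 in D+ against D-. In C-in against C- it ran from 0.38 to 2.24, and in C-out against C- from 0.63 to 2.13. As a share of summed deposited RPKM the group medians were 2.04% in D+ and 1.51% in D-. Leaving out each embryo moved the median share of counts to 1.33% to 1.56% in MS+, 1.09% to 1.15% in MS-, 1.43% to 1.71% in D+, 1.19% to 1.23% in D-, 1.52% to 2.02% in C-in, 1.62% to 2.12% in C-out and 1.19% to 1.28% in C-. Over all genes, calls in the order of the first sentence were 12, 9, 125, 230 and 0 in edgeR, 437, 509, 285, 898 and 456 in DESeq2, 347, 282, 289, 121 and 244 with no filter, 113, 22, 168, 429 and 28 with limma on log2(RPKM + 25), 229, 65, 163, 467 and 2 with limma on log2(RPKM + 1), and 12, 9, 121, 11 and 18 with the block. RLE scaling gave 4 in MS+ against MS-, and in C-in against C- 141 of 250 calls were higher, against 48 of 230 with TMM and 24 of 244 with totals. Without embryo 8, D+ against D- had 105, and without embryo 4, C-in against C- had 0. The cause of these differences was not tested. The tRNA genes had a median of 9 counts per library in all.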

Other observations

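The 8 libraries of the 3 embryos that the authors rejected entered no comparison. Their share of counts on the mitochondrial genome genes was 1.58% in D+ and 1.79% in D- of embryo 5. In the C series it was 1.57% in C-in, against 6.48% in C-out and 0.889% in C- of embryo 3, and 1.94% in C-in, against 3.03% in C-out and 3.51% in C- of embryo 7. The 2 rejected C-out libraries and the rejected C- library of embryo 7 had a larger share of gene counts than any of the 43 other libraries. Over the library total implied by the deposited RPKM, C- of embryo 7 had 2.62%, below MS+ of embryo 2 with 2.73%. Their total counts were 643651, 675859 and 1493429.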
